A study of Mus musculus with 4 samples.

Results

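The 10 genes described here encode cathepsins, the proteases that digest proteins inside lysosomes. They were found by gene symbol in each library (Ctsa, Ctsb, Ctsc, Ctsd, Ctsf, Ctsh, Ctsk, Ctsl, Ctss and Ctsz), and they are 10 of the 18298 genes with a read in at least 1 library. Each of the 10 had at least 10 reads in every library, so all 10 were among the 14123 genes tested. RNA came from primary rib chondrocytes, the cells that make cartilage, taken from C57BL/6 embryos at E18.5 and cultured to passage 1. The mutant group (2 libraries) carried Dermo1-Cre on a Senp6f/f background, and the control group (2 libraries, labelled WT) was Senp6f/f without Cre, so that both groups were homozygous for the floxed Senp6 allele. Senp6 encodes a protease that removes SUMO proteins from their targets, and Dermo1-Cre is active in the mesenchymal progenitors of the skeleton, so cells of other lineages in a culture would keep the gene. The labels do not say how many embryos went into a culture, and the p values measure the spread between these libraries only.

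Most cathepsins are made as inactive precursors, are carried to the lysosome by mannose 6-phosphate receptors and are activated by acid. The family is defined by place and function and not by descent, since Ctsd is an aspartic protease, Ctsa a serine carboxypeptidase, and the other 8 genes encode cysteine proteases of the papain type. Ctsk is known from bone, where osteoclasts secrete it to cleave the triple helix of collagen, and it is also made by fibroblasts and chondrocytes. Outside the lysosome, cathepsins are held in check by inhibitors such as the cystatins.

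Ctsk had a mutant mean RPKM 0.529 times that of the controls, while the mutant means of Ctsb, Ctsa, Ctsz and Ctsh were 0.942 to 1.03 times the control means and those of Ctsd and Ctsl 1.22 times. Ctsc was higher in both mutant libraries, by 1.75 times in the group mean, and Ctss, the rarest member, was lower in both. None of these differences passed the main test, that of edgeR, across all genes. In the quasi-likelihood test of edgeR, 0 of the 10 members had a Benjamini-Hochberg adjusted p under 0.05, as did 0% of all genes tested. At an unadjusted p under 0.05 there were 2 members, Ctsk and Ctsc, beside 15.6% of all genes tested. DESeq2 called 1 member, Ctsk, as lower (2.01% of the genes it adjusted) and 0 as higher (3.3%), and limma on the RPKM called 0. At an edgeR adjusted p under 0.1, Ctsk was the only member, with 0.496% of all genes lower and 1.52% higher.

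The start regions of 4 members are printed here because they stand for the ends of that range: Ctsk, the abundant gene that was lower, Ctss, its neighbour on the chromosome, Ctsd, the most abundant member, and Ctsc, which was higher. RefSeq windows of GRCm38.p6, from 250 bases before to 50 bases after an annotated start site, were at hand for 8 of the 10 members (9 windows, as Ctsa has 2), but not for Ctsb and Ctsh. Both strands were searched for the E-box CACGTG, which is bound by TFEB and TFE3, the regulators of lysosomal genes, and for the palindromic CLEAR element, a longer motif that contains the E-box. The other motifs were the M-box core CATGTG, which is bound by MITF, the AP-1 site TGANTCA, the TATA box TATAAA and the GC box GGGCGG. Capitals mark every match of these motifs, each sequence runs 5′ to 3′ on the strand of the gene, and a match is a description of letters and not a shown binding site.
Ctsk (chr3:95498960-95499259, forward strand): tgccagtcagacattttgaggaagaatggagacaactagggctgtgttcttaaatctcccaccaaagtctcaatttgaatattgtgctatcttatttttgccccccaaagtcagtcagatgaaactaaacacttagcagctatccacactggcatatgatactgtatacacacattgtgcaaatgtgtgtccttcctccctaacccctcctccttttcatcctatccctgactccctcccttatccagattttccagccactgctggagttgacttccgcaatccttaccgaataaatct
Ctss (chr3:95526536-95526835, forward strand): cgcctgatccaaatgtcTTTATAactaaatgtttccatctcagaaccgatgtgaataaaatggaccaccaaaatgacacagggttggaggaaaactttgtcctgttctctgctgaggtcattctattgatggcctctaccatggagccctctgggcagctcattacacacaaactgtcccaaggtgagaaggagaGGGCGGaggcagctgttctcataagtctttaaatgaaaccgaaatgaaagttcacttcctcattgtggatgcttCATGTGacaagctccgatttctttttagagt
Ctsd (chr7:142387778-142388077, reverse strand): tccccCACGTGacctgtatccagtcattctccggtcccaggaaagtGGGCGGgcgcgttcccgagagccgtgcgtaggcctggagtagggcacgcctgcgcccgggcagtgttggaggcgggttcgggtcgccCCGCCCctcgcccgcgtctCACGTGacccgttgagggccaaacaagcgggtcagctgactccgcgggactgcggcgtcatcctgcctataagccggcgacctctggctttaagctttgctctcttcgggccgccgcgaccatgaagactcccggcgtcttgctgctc
Ctsc (chr7:88277835-88278134, forward strand): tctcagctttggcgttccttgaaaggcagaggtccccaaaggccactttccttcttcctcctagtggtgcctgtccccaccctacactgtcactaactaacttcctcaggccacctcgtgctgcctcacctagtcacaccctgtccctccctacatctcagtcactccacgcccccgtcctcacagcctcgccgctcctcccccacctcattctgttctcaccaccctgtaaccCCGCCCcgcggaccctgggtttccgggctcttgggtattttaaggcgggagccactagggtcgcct

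The Ctsk window held none of the motifs searched, and neither did 1 of the 2 Ctsa windows. In the Ctsk window 43.7% of the bases were G or C, against 44% in the Ctss window and 67.3% in the Ctsd window. The Ctsd window held 2 copies of CACGTG, starting at bases -245 and -98 from the start site, and 2 GC boxes. Single copies of CACGTG lay in the windows of Ctsl and Ctsf, and 1 of the 2 Ctsa windows held 2 copies, at -12 and 6. In all, 4 of the 9 member windows held CACGTG, as did 7.15% of the 32817 RefSeq windows of the same length and 25.5% of the 55 windows of other lysosomal genes listed for this comparison. The palindrome was in 0 of the 9 windows (0.326% of all windows) and the AP-1 site in 0 (7.81%). The GC box was in 5 of the 9 (35.6%), the M-box core in 2 (14.2%) and the TATA box in 1 (13.6%). The members with CACGTG (Ctsd, Ctsa, Ctsl and Ctsf) and the members without it in these windows (Ctsk, Ctss, Ctsc and Ctsz) are too few for a comparison of their levels.

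Depth ranged from about 21016000 to 30995000 reads counted on genes per library (rounded), and the 10 cathepsin genes took 0.229% to 0.275% of these reads. The 12 chondrocyte marker genes checked were all read in every library, led by Col2a1, the main collagen of cartilage, with an RPKM of 609 and 659 in the controls and 334 and 445 in the mutants. Col1a1, the collagen of bone and fibrous tissue, was far more abundant at 3311 to 7253 RPKM. Xist was read 11354 times in mutant 2 and 2 to 5 times elsewhere, and the Y-linked gene Ddx3y was read 3 times in that library and 818 to 1601 times elsewhere. Mutant 2 thus differed from the other libraries in these sex-linked genes. The comparison of genotypes did not adjust for sex, and its part in the differences was not tested. Senp6 itself had an RPKM of 10.8 and 18.0 in the controls and 12.0 and 8.07 in the mutants, so the transcript level did not separate the labelled groups (-0.56 on the log2 scale, edgeR adjusted p = 0.410). According to the paper, Cre removes only an inner stretch of the floxed Senp6 gene. Reads from the rest of the gene can still be counted, so this level does not measure the deletion. Genes of another cell type can fall in bulk RNA because there are fewer such cells or because each cell holds less RNA, and these cannot be told apart here.

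Transcript levels were compared between members as RPKM, read counts scaled by gene length and by library size, so that genes of different length can be set side by side. Ctsd had by far the highest level, with an RPKM of 440 and 428 in the control libraries and 442 and 621 in the mutant libraries. Ctsb, a broad endopeptidase of the lysosome, came next at 146 and 154 in the controls and 154 and 156 in the mutants. Ctsz, a carboxypeptidase, lay at 144 and 110 in the controls and 118 and 133 in the mutants. These 3 genes held the first 3 ranks in every library, and their ranges over the 4 libraries did not overlap.

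Ctsl, Ctsa and Ctsk formed a middle group whose order was not the same in all libraries. Ctsl, a strong endopeptidase, measured 68.9 and 82.2 RPKM in the controls and 85.7 and 98.4 in the mutants. Ctsa, which in the lysosome protects beta-galactosidase and neuraminidase in a shared complex, measured 81.5 and 68.9 in the controls and 69.4 and 76.0 in the mutants. The ranges of Ctsl and Ctsa overlapped, and Ctsl was above Ctsa in 3 of the 4 libraries. Ctsa was above Ctsk in each of the 4. The values of Ctsa overlapped those of Ctsk in the controls (Ctsk at 77.3 and 61.0) but not in the mutants (Ctsk at 38.3 and 34.8). Ctsh, an aminopeptidase, followed at 26.5 to 32.8 RPKM, below Ctsk in every library.

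The other 3 members were scarce. Ctsc, Ctsf and Ctss had mean levels of 6.47, 6.11 and 1.03 RPKM over the 4 libraries. The ranges of Ctsc and Ctsf overlapped, and Ctsc was above Ctsf in 3 of 4 libraries. Ctss lay below every other member in all 4 libraries. By mean RPKM Ctsd stood at percentile 99.2 of the genes tested, Ctsk at 90.4 and Ctss at 17.9.

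**Figure D1:**
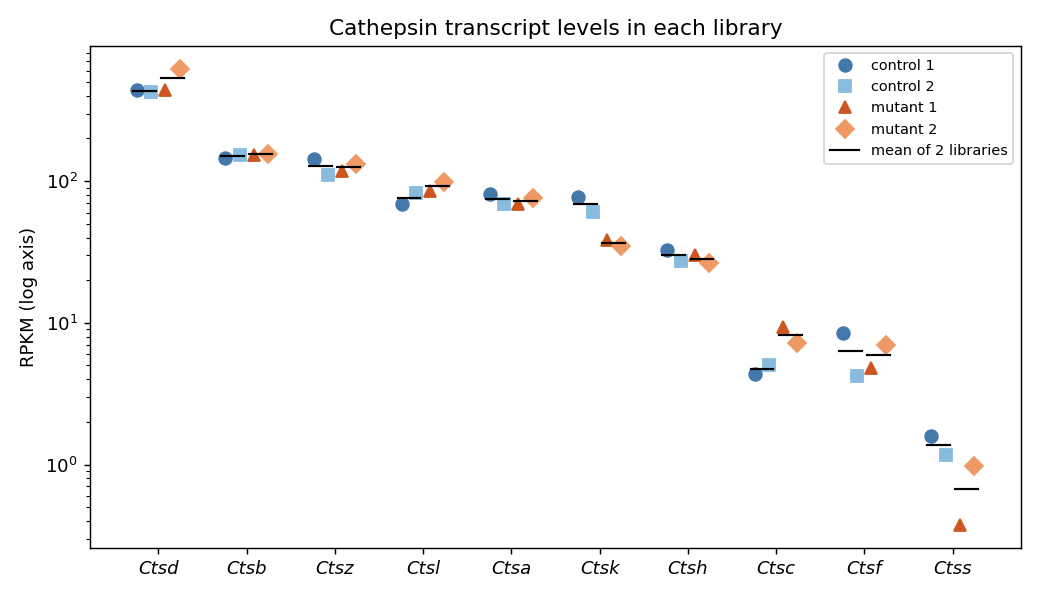
RPKM of the 10 cathepsin genes (log axis) in each of the 4 libraries, with a bar at the mean of the 2 libraries of a genotype. Ctsk is the abundant gene with both mutant values (38.3 and 34.8) well below both control values (77.3 and 61.0), while Ctsb values lie between 146 and 156.

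Ctsk (Entrez 13038) was read 2406 and 2362 times in the control libraries and 1758 and 1457 times in the mutant libraries, although the mutant libraries were the deeper ones. Its RPKM was 77.3 and 61.0 in the controls and 38.3 and 34.8 in the mutants, a mean of 69.1 ± 11.5 (SD, n = 2) against 36.5 ± 2.45 (SD, n = 2). Both mutant values were below both control values, and the lowest control value was 1.59 times the highest mutant value. On the log2 scale the controls differed from each other by 0.34 and the mutants by 0.14. The log2 fold change in mutant against control, called the log2 ratio from here on, was -0.96 (SE, the standard error, 0.17, 95% interval -1.37 to -0.55), with an adjusted p of 0.0885 in the edgeR quasi-likelihood test. The direction held in all 11 other settings, and the adjusted p was under 0.05 in 5 of them. It was 0.000165 with DESeq2 and 0.0270 in edgeR without a filter on low counts. Leaving out control 1, control 2 or mutant 1 gave edgeR adjusted p values of 0.00590, 0.000126 and 0.0243 with log2 fold changes of -0.76, -1.18 and -1.05. Leaving out mutant 2, the library with the Xist reads, gave -0.87 and an edgeR adjusted p of 0.176. Reads covered 94.6% to 98.7% of its length in each library. Without a filter 1.56% of all genes were called in either direction. Leaving out control 1, control 2, mutant 1 and mutant 2 in turn, 0.999%, 10.3%, 0.634% and 0.27% of genes were called lower, and 3.55%, 9.25%, 1.98% and 0.496% higher. With the replicate number as a block 0.234% were lower and 0.595% higher.

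**Figure D2:**
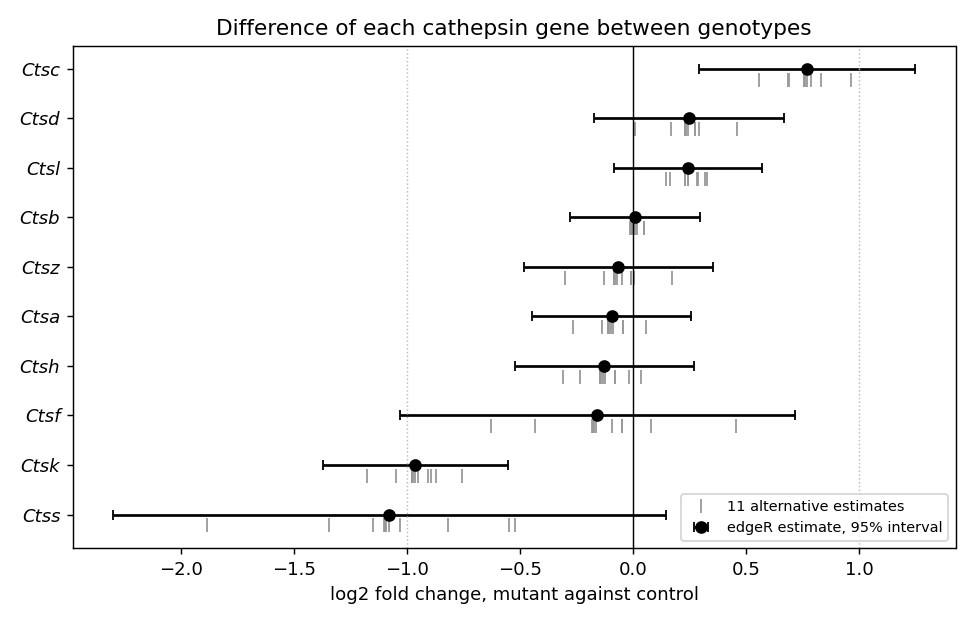
Log2 fold change of each cathepsin gene in mutant against control chondrocytes, as the edgeR estimate with its 95% interval (points and bars), and the estimates of 11 other settings (grey ticks), with dotted lines at a 2-fold change. The intervals of Ctsk (-1.37 to -0.55) and Ctsc (0.29 to 1.25) leave out 0, before adjustment for the 14123 genes tested.

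Markers of the cell types that a rib culture could hold were read beside Ctsk, and their part in its lower level was not tested. Of the 12 chondrocyte markers, 11 were lower in both mutant libraries and 0 were higher in both (19.2% and 28.3% of all genes tested). The summed RPKM of the 12 was 1010 and 988 in the controls and 510 and 640 in the mutants. Matn1, a cartilage matrix protein, had the largest difference, with a log2 ratio of -3.18 (SE 0.49, adjusted p = 0.0833 in the edgeR test). The edgeR test called 0 of the 12, with 10 lower at an unadjusted p under 0.05 (15.6% of all genes tested, in either direction). DESeq2 called 9 as lower (2.01% of the genes it adjusted). Of 5 osteoblast markers tested, 4 were lower in both mutants and 1 was higher (19.2% and 28.3% of all genes tested). Ibsp, bone sialoprotein, was at 70.7 and 16.7 RPKM in the controls and 4.62 and 11.8 in the mutants (adjusted p = 0.263 in the edgeR test), and the abundant Spp1, osteopontin, ran the other way at 310 and 468 against 479 and 600. The edgeR test called 0 of the 5, with 3 lower at an unadjusted p under 0.05 (15.6% of all genes tested, in either direction). For this list DESeq2 called 2 as lower (2.01% of the genes it adjusted). The summed RPKM of the osteoblast list was 496 and 551 in the controls and 510 and 653 in the mutants.

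Osteoclasts are the classic source of Ctsk. Several markers that define them had few or no reads, while others were read in every library. Calcr and Dcstamp had 0 reads in every library, and Atp6v0d2 and Ocstamp stayed under 0.12 RPKM. The summed RPKM of the 9 osteoclast markers with a read was 30.0 and 24.5 in the controls and 28.2 and 25.7 in the mutants, so the genotypes overlapped. Most of that sum came from Nfatc1 and Itgb3, which other cells also express, and the part of osteoclasts in the level of Ctsk was not tested. Of the 7 tested, 0 were lower and 3 were higher in both mutants (19.2% and 28.3% of all genes tested). The tests of edgeR and limma called 0, and 3 were at an unadjusted p under 0.05 in edgeR (15.6% of all genes tested, in either direction). DESeq2 called 1, as higher (3.3% of the genes it adjusted). Nfatc1, a transcription factor of osteoclasts, was the most abundant at 12.9 to 13.9 RPKM, and Acp5, the tartrate-resistant phosphatase, was at 6.95 and 2.79 in the controls and 4.48 and 3.93 in the mutants. Mmp9, named after its values were seen, was at 3.48 and 1.24 RPKM in the controls and 2.03 and 1.76 in the mutants. Tnfrsf11a, the RANK receptor, was the gene called by DESeq2, as higher, at 0.265 and 0.472 against 1.27 and 1.76 RPKM, and Car2, carbonic anhydrase, had the largest difference at a low level, 0.0790 and 0.0847 RPKM against 0.357 and 0.451. Among fibroblast markers, 4 of 7 were lower in both mutants (19.2% of all genes tested). They included Col1a1 (log2 fold change -0.63, adjusted p = 0.332 in the edgeR test) and Dcn, decorin (-1.41, adjusted p = 0.167). Thy1, a surface marker of fibroblasts, was higher in both mutants, at 219 and 341 RPKM in the controls and 609 and 832 in the mutants (1.32 on the log2 scale, edgeR adjusted p = 0.0885). Of 9 skeletal muscle markers, 5 were higher in both mutants and 0 lower (28.3% and 19.2% of all genes tested). The summed RPKM of the 9 was 98.5 and 34.8 in the controls and 172 and 187 in the mutants. Acta1 was the most abundant, and the largest difference was in Actc1 (1.85 on the log2 scale, edgeR adjusted p = 0.165). The edgeR test called 0 genes of either list. At an unadjusted p under 0.05 there were 1 higher and 2 lower fibroblast markers and 4 higher muscle markers (15.6% of all genes tested, in either direction). DESeq2 called 1 marker of each list, both as higher (3.3% of the genes it adjusted). They were Thy1 (DESeq2 adjusted p = 2.59e-06) and Des, desmin (DESeq2 adjusted p = 2.89e-07). Des was at 16.9 and 10.5 RPKM in the controls and 42.6 and 41.9 in the mutants (1.58 on the log2 scale, edgeR adjusted p = 0.0833). It was named after its values were seen. None of the red blood cell markers had enough reads to be tested, and their sum was at most 0.492 RPKM.

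The pattern of Ctsk over the 4 libraries was compared with that of 6100 genes with a mean RPKM of at least 10 (Euclidean distance of centred log2 RPKM, over 4 libraries of 2 genotypes). The nearest was Bmper, which encodes a secreted modulator of BMP signalling, at a distance of 0.0871, with an RPKM of 16.1 and 12.2 in the controls and 7.85 and 6.71 in the mutants. Next came Mvd, an enzyme of cholesterol synthesis, at 0.204, then Tlcd2 at 0.205, Il1rn, the antagonist of the interleukin 1 receptor, at 0.211, and Adam23 at 0.213. With 4 libraries many genes share such an order, and the distances are a description only.

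Ctss encodes an endopeptidase that stays active at neutral pH and is known from antigen-presenting cells. It was read 46 and 42 times in the controls and 16 and 38 times in the mutants, with exact 95% Poisson intervals, which cover counting error only, of 33.7 to 61.4, 30.3 to 56.8, 9.15 to 26.0 and 26.9 to 52.2 reads. Its RPKM was 1.59 and 1.17 in the controls and 0.375 and 0.978 in the mutants. Reads covered 46.1% of its length in mutant 1 and 72.0% to 86.8% in the other libraries. Mutant 1 was far below the controls and mutant 2 only slightly below the lower control. The log2 ratio was -1.08 (SE 0.51, 95% interval -2.30 to 0.14, edgeR adjusted p = 0.379), and it was -0.52 at its smallest and -1.89 at its largest over the other settings. As a ratio of mutant to control this interval runs from 0.203 to 1.11, so a large difference and none could not be separated at this depth.

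Markers of macrophages and other leukocytes were read beside Ctss. Of 11 tested, 8 were lower in both mutants, 2 were higher (Cd14 and Mrc1) and Cd68 overlapped, where 19.2% of all genes tested were lower and 28.3% higher. Their summed RPKM, over 15 markers, was 27.5 and 25.1 in the controls and 14.1 and 19.6 in the mutants. Lyz2, lysozyme, the most abundant, measured 11.1 and 7.85 in the controls and 2.53 and 4.76 in the mutants (log2 fold change -1.43, edgeR adjusted p = 0.135), and C1qb, a complement subunit of macrophages, 2.02 and 1.77 against 0.729 and 0.533 (-1.61, edgeR adjusted p = 0.128). Cd14 was higher in both mutants, at 2.22 and 2.96 against 3.25 and 4.56. Ptprc, which marks all leukocytes, was at 0.0174 to 0.0427 RPKM, and Fcgr1 and Aif1 had 0 reads in mutant 1. The edgeR test called 0 of the 11, with 3 lower at an unadjusted p under 0.05 (15.6% of all genes tested, in either direction). DESeq2 called 1 as lower (2.01% of the genes it adjusted), and limma 0. The part of these cells in the level of Ctss was not tested.

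Ctsk and Ctss are next to each other among the protein-coding genes of chromosome 3 in RefSeq, after Arnt, a transcription factor gene. Arnt had a level of 21.8 and 22.5 RPKM in the controls and 22.1 and 21.2 in the mutants, and its log2 ratio was -0.07 (SE 0.12, edgeR adjusted p = 0.827). Its groups overlapped, unlike those of Ctsk and Ctss.

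Ctsc encodes dipeptidyl peptidase 1, which activates serine proteases of immune cell granules and trims proteins in the lysosome. It was read 225 and 328 times in the controls and 712 and 502 times in the mutants, with an RPKM of 4.33 and 5.08 against 9.29 and 7.19. Both mutant values were above both control values, with means of 8.24 ± 1.49 (SD, n = 2) and 4.70 ± 0.527 (SD, n = 2). The log2 ratio was 0.77 (SE 0.20, 95% interval 0.29 to 1.25, edgeR adjusted p = 0.148). DESeq2 gave 0.76 with an adjusted p of 0.0552. Over the 11 other settings Ctsc passed the threshold in 1, without control 2, where the edgeR adjusted p was 0.0220. Without mutant 1 it was 0.56 on the log2 scale (edgeR adjusted p = 0.748). Of the 11 leukocyte markers tested, 2 were higher in both mutants and 8 lower (28.3% and 19.2% of all genes tested). The part of these cells in the level of Ctsc was not tested.

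Across the 10 members, 3 were higher in both mutant libraries (Ctsc, Ctsd and Ctsl) and 2 were lower in both (Ctsk and Ctss). Over all genes tested, 28.3% were higher and 19.2% lower in both mutants, and 47.5% did either, beside 5 of the 10 members. The median log2 fold change of the 10 members was -0.08, against 0.01 over all genes tested, and the median size of the change was 0.20 for both. Ctsd reached a non-overlap only narrowly, since mutant 1 (442 RPKM) was just above control 1 (440), and its log2 ratio was 0.25 (SE 0.18, edgeR adjusted p = 0.569). Without mutant 2, where Ctsd reached 621 RPKM, it was 0.0082 on the log2 scale. Ctsl had a log2 ratio of 0.24 (SE 0.14, edgeR adjusted p = 0.465).

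The other 5 members overlapped between the genotypes. Ctsb showed the least difference, with a log2 ratio of 0.01 (95% interval -0.28 to 0.30), which as a ratio of mutant to control is 0.823 to 1.23. The intervals of Ctsa, Ctsb, Ctsd, Ctsh, Ctsl and Ctsz all lay inside a 2-fold change in either direction. Ctsf, a cysteine protease with a long propeptide, was the least settled of the 5, with 8.46 and 4.22 RPKM in the controls and 4.77 and 6.99 in the mutants. Its controls differed by 1.0 on the log2 scale, more than the genotypes did (-0.16, 95% interval -1.03 to 0.72).

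Summed over the 10 members, the RPKM was 1005 and 941 in the controls and 952 and 1161 in the mutants. The genotypes overlapped, and the mean ratio of mutant to control was 1.09 (exact permutation test, two-sided, p = 0.667, where 2 against 2 cannot go below 0.33). Within this sum Ctsd made up 43.8% and 45.5% in the controls and 46.5% and 53.5% in the mutants. Ctsk made up 7.69% and 6.48% in the controls and 4.02% and 3.00% in the mutants, so its share was lower in both mutants (exact permutation test, two-sided, p = 0.33, the smallest this design allows). Taken from read counts in place of RPKM, the ratio of the mean share was 0.494, against 0.496 from RPKM. The RPKM of Ctsl was 0.892 and 1.35 times that of Ctsk in the controls and 2.24 and 2.83 times in the mutants. These values did not overlap (exact permutation test, two-sided, p = 0.33). In control 1 Ctsk ranked above Ctsl, and in the other 3 libraries below it.

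**Figure D3:**
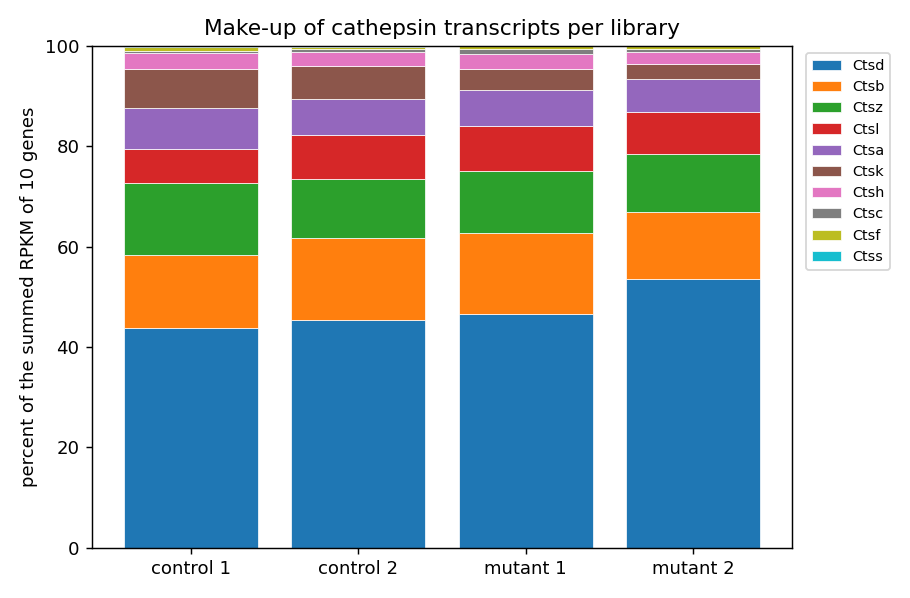
Share of each cathepsin gene in the summed RPKM of the 10 genes (percent, stacked bars from 0 to 100) in each of the 4 libraries. The Ctsk band narrows from 7.69% and 6.48% in the controls to 4.02% and 3.00% in the mutants, and the Ctsd band is widest in mutant 2 at 53.5%.

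Of 13 further cathepsin genes of the mouse, 4 had a read and 9 had 0 reads in all libraries, among them Ctsg, the serine protease of neutrophil granules. Ctso, a cysteine protease, was the only other cathepsin above an RPKM of 1, at 5.42 and 3.47 in the controls and 2.99 and 4.20 in the mutants, with overlapping groups (log2 fold change -0.35, edgeR adjusted p = 0.616). Of 11 cathepsin inhibitors listed, 9 had a read and 5 had enough reads to be tested, and Cst3, Cstb and Serpinb6a were the abundant ones. Cst3, cystatin C, the secreted inhibitor of cysteine cathepsins, had an RPKM of 298 and 202 in the controls and 228 and 245 in the mutants. Cstb, the inhibitor inside the cell, had 76.7 and 106 against 107 and 137 (log2 fold change 0.38, SE 0.19, edgeR adjusted p = 0.409), with mutant 1 barely above control 2. Serpinb6a, an inhibitor of cathepsin G, had 104 and 133 against 118 and 138, and Kng1, a kininogen with cystatin domains whose reads may be shared with its close copy Kng2, had 6.44 and 4.53 against 4.45 and 4.97. Of 5 inhibitors tested, 2 were higher in both mutants and 0 lower (28.3% and 19.2% of all genes tested). The tests of edgeR, DESeq2 and limma called 0, with 0 at an unadjusted p under 0.05 in edgeR (15.6% of all genes tested, in either direction).

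The rest of the lysosome gave a background for the cathepsins. Of 31 other lysosomal hydrolases and cofactors, all tested, 7 were higher and 10 lower in both mutants (28.3% and 19.2% of all genes tested). Of these 31 genes, 0 were called by edgeR, DESeq2 or limma. In edgeR 4 were lower at an unadjusted p under 0.05 (15.6% of all genes tested, in either direction). The median log2 fold change of the 31 was -0.10. Psap, the precursor of the saposins, was the most abundant at 319 to 380 RPKM. Naglu, which degrades heparan sulfate, had the lowest value, at 23.5 and 15.1 RPKM in the controls and 12.6 and 12.4 in the mutants (log2 fold change -0.67, edgeR adjusted p = 0.234), and Ids, another enzyme of that pathway, the highest among genes without overlap (0.21, edgeR adjusted p = 0.518). Glb1, the beta-galactosidase that Ctsa protects and that senescence staining detects, was singled out after its values were seen, at 26.4 and 18.9 RPKM in the controls and 18.9 and 20.8 in the mutants (-0.24, edgeR adjusted p = 0.630).

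Of 24 genes for the lysosomal membrane, its proton pump and the sorting of hydrolases, 8 were higher and 0 lower in both mutants (28.3% and 19.2% of all genes tested). The tests of edgeR, DESeq2 and limma called 0 of the 24. In edgeR 1 was higher at an unadjusted p under 0.05 (15.6% of all genes tested, in either direction). The most abundant was Cd63, a tetraspanin, at 370 to 403 RPKM, and the largest difference without overlap was that of Ostm1, a partner of the chloride transporter of the lysosome, at 6.50 and 6.55 RPKM against 8.91 and 9.69 (log2 fold change 0.47, edgeR adjusted p = 0.187). Igf2r, a receptor that brings cathepsin precursors to the lysosome, had 57.6 and 57.2 against 70.1 and 66.8, and the regulators Tfeb and Tfe3 overlapped between genotypes (log2 fold changes -0.01 and 0.01). These 3 were singled out after their values were seen. All 55 genes of both lysosomal lists had a change smaller in size than that of Ctsk, as did 91.2% of all genes tested. Over both lists the largest change was 0.67 in size on the log2 scale, and the median log2 fold change was -0.01.

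**Figure D4:**
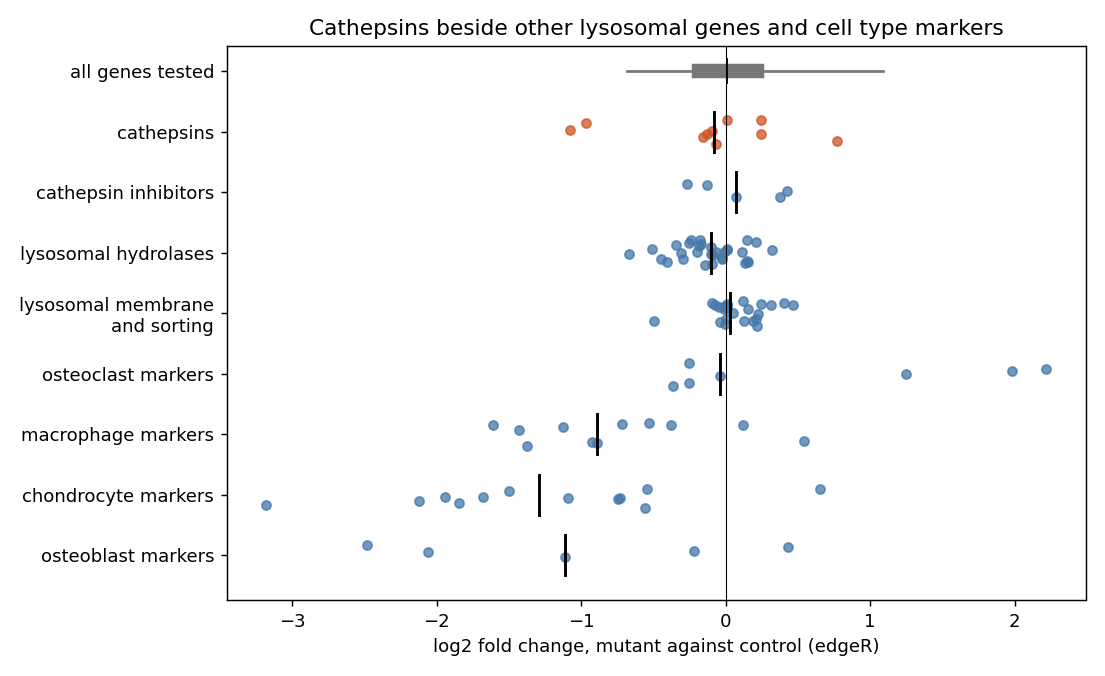
Log2 fold change in mutant against control for the tested genes of each list (points, with a bar at the median), beside all 14123 genes tested (thick bar from the lower to the upper quartile, line from percentile 5 to 95, at -0.68 and 1.09). The other lysosomal genes lie within 0.67 of 0, Ctsk and Ctss lie lower and Ctsc lies higher, at 0.77. Most chondrocyte and macrophage markers are negative.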

How the data were processed

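The study gave 1 file for each of 4 libraries, made by a sequencing service from poly(A) RNA. The authors deposited the read counts per gene without normalization, and the RPKM, in which each count is divided by gene length and by the total of its file. Coverage, the percent of a gene's length reached by reads, was deposited as well. The submitters' processing notes name mm9 and SAMtools, and the aligner, the counting tool and the annotation are not given in the sources used here. Genes without a row in a file were given 0 reads.

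For the counts, edgeR 4.0.16 in R 4.3.3 was used (robust quasi-likelihood fit, TMM scaling). It took the 14123 genes that reached 10 counts in 2 or more libraries, with p values adjusted by Benjamini-Hochberg and standard errors taken from the F statistic. The alternatives were DESeq2 1.42.0, RLE size factors, other filters, limma 3.58.1 on log2(RPKM + 1) and log2(RPKM + 0.1), a block for the replicate number and fits that drop 1 library. DESeq2 gave 13301 genes an adjusted p and left the others without one. The scripts were tested on simulated data. Replicates differed by far more than sampling noise (chi-square per degree of freedom 51.5 and 24.9). Promoter sequences are from RefSeq on GRCm38.p6.

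The members and gene lists were chosen with earlier results of these data known. Named were all members, Senp6, the inhibitors and other cathepsins that reached 1 RPKM in 2 or more libraries, the most abundant gene and the largest non-overlapping change in each direction of the other lists, and the 5 genes nearest to Ctsk.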

Additional observations from a re-analysis of the deposited data

How the results depend on the processing

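With 2 libraries per genotype the number of calls depended on the tool. Over all genes, edgeR called 0 higher and 0 lower, with a smallest adjusted p of 0.0512 and 1312 higher and 887 lower at an unadjusted p under 0.05. DESeq2 called 439 higher and 267 lower, among them 1 lower cathepsin and 3 higher and 12 lower listed genes outside the cathepsins. Without a filter on low counts edgeR called 225 higher and 61 lower, with 1 lower cathepsin and 3 higher and 5 lower listed genes. RLE size factors, 10 counts in every library and both limma fits called 0. With the replicate number as a block 84 higher and 33 lower genes were called, with 2 higher and 2 lower listed genes and 0 cathepsins, and the edgeR adjusted p of Ctsk was 0.0609 (log2 fold change -0.95). The labels do not say whether equal replicate numbers pair the libraries. The replicate 1 against 2 differences of the genotypes correlated at -0.0318 across genes, which are not independent and so cannot settle this. That block is a description only. With 1 library left out, where the lone library of a group is assumed to vary like the other group, edgeR called 68 to 1296 genes higher and 37 to 1444 lower (most without control 2), 0 to 1 cathepsins in each direction, and 2 to 10 higher and 5 to 29 lower listed genes. The median of the 10 cathepsins then ranged from -0.28 to 0.10, at its ends without control 2 and without control 1. Directions of the members near 0 changed with the setting: Ctsb was at -0.01 with DESeq2, with RLE size factors and without a filter (-0.0089, -0.0089 and -0.0054), and with a library left out it ranged from -0.0121 to 0.0191, Ctsa from -0.266 to 0.0575, Ctsf from -0.628 to 0.454, Ctsh from -0.309 to 0.0363 and Ctsz from -0.301 to 0.170, and the cause was not tested. Ctsk, Ctss, Ctsc, Ctsd and Ctsl kept their direction in all 11 settings. The summed RPKM ratio was 0.978 to 1.19 with a library left out and the ratio of the Ctsk share 0.423 to 0.568. With a library left out, a setting chosen after the data were seen, members higher in every mutant library numbered 3 to 6 (6 without control 1) and members lower 2 to 6 (6 without control 2). At 16 to 46 reads the level of Ctss has the widest counting error.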
